A study of Danio rerio with 27 samples.

Results

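Skin and muscle were compared in 6 RNA-seq libraries from adult zebrafish, 3 labelled skin and 3 labelled muscle, which were all such libraries among the 27 of a survey of 9 tissues. All fish were wild-type of the TLAB strain, a cross of the AB and TL lines, and received no treatment. Poly(A) RNA was sequenced in strand-specific libraries. The libraries were taken by their tissue label alone, and 32524 genes were quantified in each as TPM, a transcript level that is scaled for transcript length and for the total of the library. The labels do not say from which body region the skin came, how it was parted from the muscle beneath it, or whether replicates came from separate fish, so the p-values below measure the spread between these libraries only.

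The skin of a bony fish is a layered epidermis of keratin-rich epithelial cells with mucous, club and ionocyte cells among them, which rests on a basement membrane above a collagenous dermis that carries pigment cells and bony scales. Trunk muscle of zebrafish keeps its fibre types apart in space: slow, red, oxidative fibres lie in a superficial layer directly under the skin, and fast, white, glycolytic fibres fill the depth of the myotome. Each fibre type uses its own versions of myosin, troponin, tropomyosin, calcium pump and calcium channel, and these paralogues mark the fibre types apart.

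On the genes tested, the 6 libraries were more like each other than those of any other tissue pair in the survey. The genes tested were kept by their level in these 6 libraries, so genes found only in other organs did not enter the other pairs. Pearson's r of log2(TPM + 1) across the 16318 genes tested, which are not independent replicates and which share the most abundant muscle transcripts, lay between 0.905 and 0.924 for the 9 skin and muscle pairs, against 0.96 to 0.969 within skin and 0.935 to 0.95 within muscle. The next most alike pair of tissues, intestine and liver, had a median r of 0.828, and skin and tail had one of 0.644. Total estimated counts were 10012728 to 12605064 in skin and 5512418 to 9780807 in muscle, lowest in muscle replicate 2.

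The epidermal markers went against the labels. Both groups held muscle transcripts at high levels: ckma, a muscle creatine kinase, stood at 13206, 14509 and 15990.1 TPM in the libraries labelled skin and 18495, 17378 and 14197 TPM in those labelled muscle. The 22 epidermal keratin genes summed to 12678, 12403 and 8149.7 TPM in the libraries labelled skin and to 26099, 15156 and 25632 TPM in those labelled muscle. With TPM as deposited, every library labelled muscle thus held more keratin transcript than every library labelled skin. Libraries labelled tail held 79702 to 88454 TPM of the same genes. The summed keratin level of the libraries labelled skin was 49.7% of that in muscle and 13.2% of that in tail. Fast fibre genes, by contrast, summed to more in every library labelled muscle with TPM as deposited. The margin was narrow between skin replicate 3 (62187 TPM) and muscle replicate 3 (64797 TPM). After median-of-ratios rescaling, described below, neither the fast fibre nor the keratin sums stay apart by group. Pigment cell genes summed to 228 to 398 TPM in skin against 132 to 205 TPM in muscle. The names skin and muscle below are those of the labels.

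One library stood apart. Muscle replicate 2 held 145 genes at 10 TPM or more and at least 4 times above each of the other 5 libraries, against 2 to 17 such genes in each of the others. They included lyz, a lysozyme of neutrophils, at 252 TPM against 1.71 to 16.5 elsewhere, and hbaa2, an alpha globin of red blood cells, at 193 TPM against 1.95 to 13.1. The red blood cell list summed to 957, 3169.8 and 624 TPM in muscle and 677, 470.2 and 799 TPM in skin, and the testis germ cell list to 1.93, 51.5 and 21.5 TPM in muscle and 8.59, 2.59 and 1.55 TPM in skin. Calls and list medians that this library moved by over 1.5 times are given with and without it. In these bulk samples, fewer cells of a type and less RNA per cell cannot be told apart.

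**Figure D1:**
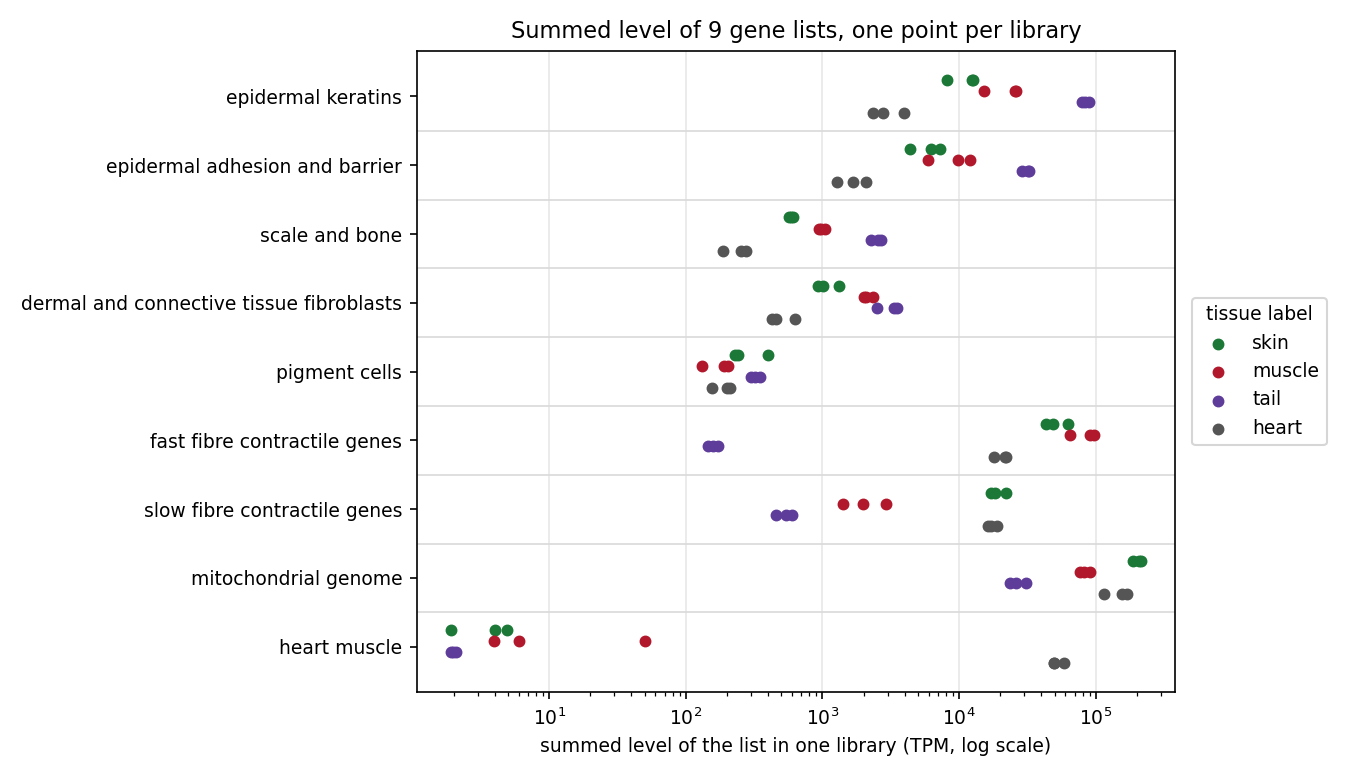
Summed TPM of 9 gene lists on a log axis, with 1 point for each library labelled skin, muscle, tail or heart. Skin lies below muscle for keratins (8149.7 to 12678 against 15156 to 26099 TPM) and far above it for slow fibre genes (17059.6 to 22129 against 1416 to 2919 TPM), while the heart muscle list stays at or below 50.05 TPM in all 6 libraries.

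Which genes told the libraries apart was tested with limma on log2(TPM + 1), for genes at 1 TPM or more in at least 3 of the 6 libraries. A gene was called at a Benjamini-Hochberg adjusted p under 0.05 and an at least 2-fold change. Of 16318 genes tested, 369 were called higher in skin (2.26%) and 515 higher in muscle (3.16%). With TPM as deposited, all 3 skin libraries lay above all 3 muscle libraries for 6.28% of the genes. All 3 muscle libraries lay above all 3 skin libraries for 31.5%. Overlap of single genes is judged on TPM as deposited throughout, and was not judged again after rescaling. An exact permutation test of 3 against 3 cannot give a two-sided p below 0.1.

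The balance between the directions depended on the scaling. Transcripts of 12 protein-coding genes of the mitochondrial genome, which stand for that genome below, took 18.9 to 21.3% of all TPM in skin. In muscle they took 7.69 to 9.07%. The log2 fold change of skin minus muscle had a median of -0.33 over the genes tested. After median-of-ratios rescaling, which moved this median to -0.022, the calls were 644 higher in skin (3.95%) and 226 higher in muscle (1.38%), and edgeR on the rounded estimated counts called 761 (4.66%) and 344 (2.11%). Of the calls, 41.7% were higher in skin with TPM as deposited, 74.02% after median-of-ratios rescaling and 68.9% with edgeR. Quantile normalization gave 68.5%, DESeq2 64.1%, and TPM without the mitochondrial genome 60.7%. Leaving out 1 library, the skin calls fell to 231 without skin replicate 3, and the muscle calls were 162 without skin replicate 3, 214 without skin replicate 1, 265 without muscle replicate 3, 301 without skin replicate 2 and 792 without muscle replicate 2. Called in 1 direction under limma with TPM as deposited, median-of-ratios and quantile scaling, edgeR and DESeq2 alike were 339 genes higher in skin and 197 higher in muscle. List medians below are therefore read against -0.33, and are followed by their value after median-of-ratios rescaling. Counts of calls after that rescaling or by edgeR are likewise read against the shares of all genes just given.

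**Figure D2:**
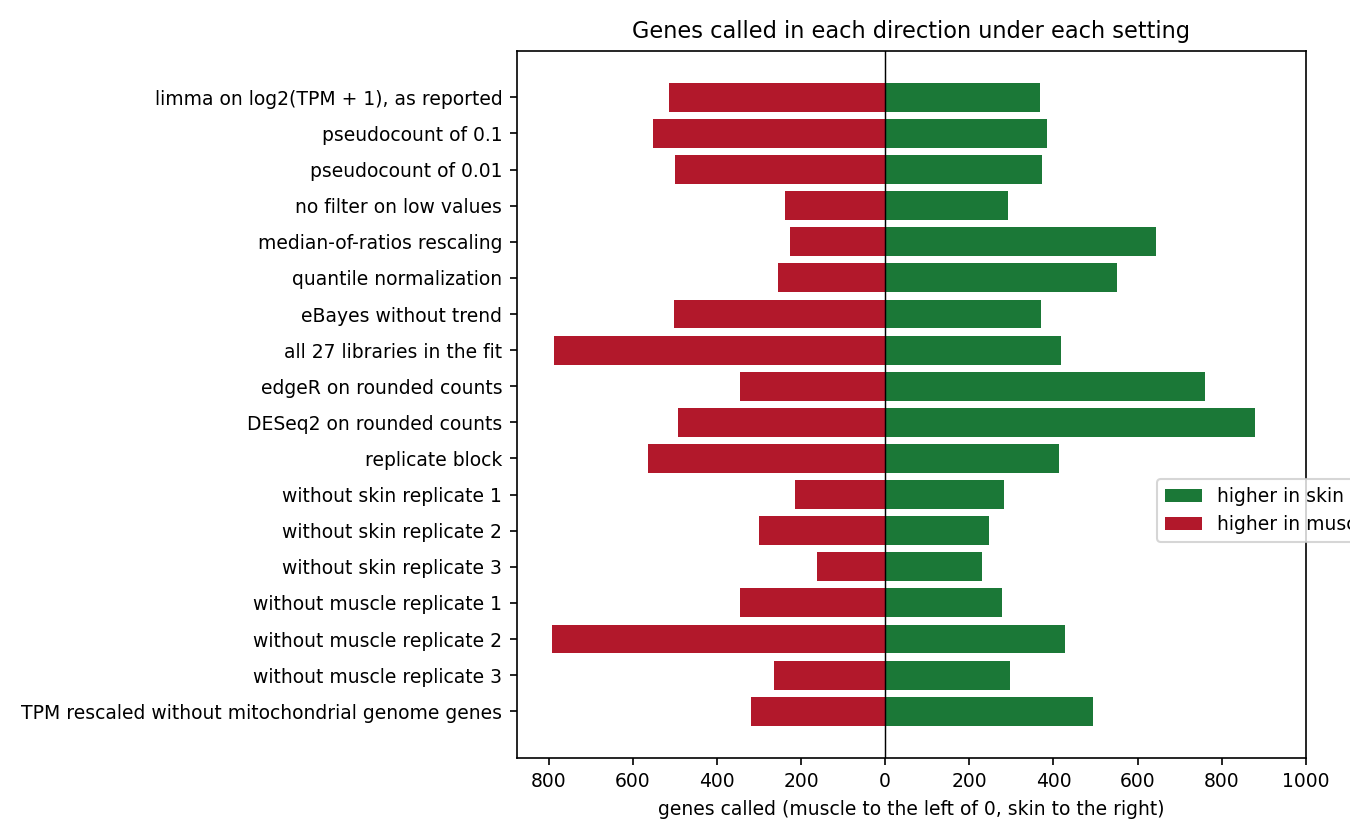
Number of genes called higher in muscle (bars to the left of 0) and higher in skin (bars to the right) under the reported fit and each alternative. Muscle calls outnumber skin calls with TPM as deposited (515 against 369), and skin calls outnumber muscle calls after median-of-ratios rescaling (644 against 226) and with edgeR (761 against 344).

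Epidermal keratins were higher in muscle wherever they were called. Of 22 keratin genes, 17 passed the filter, 7 were called, all of them higher in muscle (41.2%, against 3.16% of all genes), and the median log2 fold change of the 17 was -0.77 (-0.45 after median-of-ratios rescaling). krt97 had 201, 97.8 and 70.6 TPM in skin and 1092, 563 and 1124 TPM in muscle. Its muscle mean was 7.52 times the skin mean without overlap (log2 fold change -2.97, SE 0.41, adjusted p 0.0062), and the tail libraries averaged 2993 TPM. krt5, the type II keratin of basal epidermal cells, had 3516, 3827 and 1797 TPM in skin and 9280.5, 5376 and 8567 TPM in muscle. The groups did not overlap (log2 fold change -1.38, SE 0.32, adjusted p 0.041), although only 4 of the 17 alternatives kept the call, and tail averaged 35864 TPM.

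Among the other keratins, krt15 (log2 fold change -1.72, adjusted p 0.0055), krt1-19d (log2 fold change -2.63, adjusted p 0.014) and krt1-19e (log2 fold change -2.22, adjusted p 0.0029) were called higher in muscle by limma, krt15 and krt1-19e under all 17 alternatives. krt15 averaged 585 TPM in heart, against 407 TPM in skin, 1322 TPM in muscle and 10472 TPM in tail. The low-level krt99 and KRT222 were called as well. krt4, a keratin of the superficial layer, had 576, 622 and 409.7 TPM in skin and 1142, 709 and 1284 TPM in muscle. Its groups did not overlap, but it was not called (log2 fold change -0.94, SE 0.26, adjusted p 0.071). krt8, a keratin of simple epithelia, overlapped, with 1155, 1122 and 1111 TPM in skin against 1296, 913 and 1359 TPM in muscle (log2 fold change -0.05, SE 0.19, adjusted p 0.85). Paralogous keratins are similar in sequence, so reads may be divided among them, and single keratin values are less certain than the sum. Without muscle replicate 2, whose keratin sum was the lowest of its group, 9 of the 17 were called higher in muscle, and the median was -1.20. The count was 3 without skin replicate 2 and 4 without skin replicate 1, skin replicate 3 or muscle replicate 3.

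Transcription and splicing factors that set epidermal identity had negative log2 fold changes with TPM as deposited in all 15 genes that passed the filter. Of these, 6 were called higher in muscle (40%, against 3.16% of all genes). The median log2 fold change of the 15 was -1.13 (-0.80 after median-of-ratios rescaling), and that of all genes was -0.33. KLF4 went from -0.35 to 0.02 with that rescaling. grhl3, a grainyhead factor of the outer epidermis, had 4.68, 4.43 and 2.41 TPM in skin and 24.4, 13.8 and 18.5 TPM in muscle. The groups did not overlap (log2 fold change -2.04, SE 0.28, adjusted p 0.0065), the call held under all 17 alternatives, and tail averaged 134 TPM. TP63, the master regulator of basal keratinocytes, had 80.0, 66.5 and 49.6 TPM in skin and 169, 57.6 and 119.7 TPM in muscle. These overlapped, because muscle replicate 2 lay below 2 skin libraries, and the gene was not called (log2 fold change -0.71, SE 0.38, adjusted p 0.23).

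The grainyhead factor GRHL1 (log2 fold change -1.66, adjusted p 0.018), the zinc finger factor ovol1a (log2 fold change -1.78, adjusted p 0.044), the epithelial splicing factor ESRP2 (log2 fold change -1.42, adjusted p 0.029) and klf17 (log2 fold change -1.01, adjusted p 0.0499) were among the other calls by limma. klf17 was called under 0 of the 17 alternatives, and averaged 43.4 TPM in heart against 26.9 TPM in tail. GRHL1 averaged 32.8 TPM in heart, against 11.9 TPM in skin, 39.2 TPM in muscle and 177 TPM in tail. After median-of-ratios rescaling 1 regulator was still called. Leaving out 1 library, the count was 1 without skin replicate 2, skin replicate 3 or muscle replicate 3, 2 without skin replicate 1 or muscle replicate 1 and 10 without muscle replicate 2.

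Cell adhesion and barrier genes, the desmosome, claudin and other barrier components of the epithelium, showed the same direction. All 40 passed the filter and had negative log2 fold changes with TPM as deposited, where the median over all genes was -0.33. Of the 40, 3 were called higher in muscle (7.5%, against 3.16% of all genes). The median log2 fold change of the 40 was -0.83 (-0.45 after median-of-ratios rescaling). PPL encodes periplakin and had 41.8, 57.5 and 30.8 TPM in skin and 157, 88.8 and 177 TPM in muscle, with no overlap (log2 fold change -1.66, SE 0.32, adjusted p 0.021). Envoplakin evpla (log2 fold change -1.61, adjusted p 0.03) and agr1, an anterior gradient protein (log2 fold change -1.93, adjusted p 0.029), were the other calls. The epithelial adhesion molecules were not called: epcam had 376, 202 and 112 TPM in skin and 336, 199.8 and 485 TPM in muscle (log2 fold change -0.64, SE 0.46, adjusted p 0.35), and cdh1, E-cadherin, 51.2, 40.5 and 18.7 TPM in skin and 60.1, 35.4 and 62.8 TPM in muscle (log2 fold change -0.58, SE 0.38, adjusted p 0.32). The tight junction claudin cldni overlapped between groups too, at 272, 256 and 175 TPM in skin and 305, 197 and 489 TPM in muscle (log2 fold change -0.42, SE 0.33, adjusted p 0.39). tgm5l, a transglutaminase, overlapped and was not called (log2 fold change -1.65, SE 0.52, adjusted p 0.091). The count of barrier calls rested on single libraries and was 0 without skin replicate 3, 1 without skin replicate 1, muscle replicate 1 or muscle replicate 3 and 18 without muscle replicate 2.

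Of the hemidesmosome and basement membrane genes, 11 of 15 passed and 1 was called higher in muscle (9.09%, against 3.16% of all genes). This was col17a1b, a collagen that anchors basal cells, with 60.03, 92.6 and 47.9 TPM in skin and 215, 132 and 259 TPM in muscle. Its groups did not overlap (log2 fold change -1.58, SE 0.32, adjusted p 0.026). ITGB4, the integrin of hemidesmosomes, did overlap, at 296, 401 and 298 TPM in skin and 419, 226 and 586 TPM in muscle (log2 fold change -0.22, SE 0.33, adjusted p 0.66), and the median log2 fold change of the 11 was -0.71 (-0.33 after median-of-ratios rescaling). LAMA5, a laminin chain, and ITGA3, an integrin of basal cells, had log2 fold changes of -0.95 and -0.86 and were not called (adjusted p 0.083 and 0.062). col17a1a did not pass the filter. The count was 0 without skin replicate 1, skin replicate 3, muscle replicate 1 or muscle replicate 3 and 2 without muscle replicate 2.

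Markers of the specialised cells of the epidermis were sparse, and only 13 of 29 passed the filter. Of these, 4 were called, all of them higher in muscle (30.8%, against 3.16% of all genes). RHCG (ENSDARG00000007080), an ammonia transporter of ionocytes, had 0.834, 1.08 and 0.433 TPM in skin and 9.56, 4.61 and 7.80 TPM in muscle, with no overlap (log2 fold change -2.19, SE 0.28, adjusted p 0.0049). ca2, a carbonic anhydrase (log2 fold change -1.60, adjusted p 0.011), the lectin itln1 (log2 fold change -1.61, adjusted p 0.027) and the parvalbumin pvalb8 (log2 fold change -1.74, adjusted p 0.029) were the others. AGR2, made by mucous cells, had 24.1, 12.6 and 7.01 TPM in skin and 42.0, 21.2 and 69.1 TPM in muscle and was not called (log2 fold change -1.54, SE 0.50, adjusted p 0.097). The mucin gene muc5.2 overlapped, at 44.8, 63.0 and 17.6 TPM in skin and 70.7, 20.8 and 64.4 TPM in muscle. It was not called either (log2 fold change -0.30, SE 0.56, adjusted p 0.72), and stood at 0.07 after median-of-ratios rescaling. The ionocyte pump gene atp1a1a.4 and pvalb9 were high in muscle replicate 2 alone, at 79.9 and 26.1 TPM, against at most 3.60 and 1.55 TPM in the other libraries. Neither was called. The median log2 fold change of the 13 was -1.54 (-1.17 after median-of-ratios rescaling and -0.59 without muscle replicate 2), and the count was 1 without skin replicate 3 and 2 without skin replicate 2 or muscle replicate 1.

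Scale and bone genes were higher in muscle wherever they were called. Of 51 genes, 35 passed the filter and 11 were called, all of them higher in muscle (31.4%, against 3.16% of all genes). Of the 35, 21 had all muscle libraries above all skin libraries (60%, where the share over all genes was 31.5%). The median log2 fold change of the 35 was -0.81 (-0.51 after median-of-ratios rescaling). After median-of-ratios rescaling 10 were called, and without muscle replicate 2 12. Most were at low levels. Both type X collagen genes, which scale- and bone-forming cells express in zebrafish, were under 1 TPM in every library labelled skin, where the added 1 understates a change. COL10A1 (ENSDARG00000101535) had 0.0720, 0.571 and 0.316 TPM in skin and 7.30, 17.8 and 11.4 TPM in muscle, with no overlap (log2 fold change -3.26, SE 0.32, adjusted p 0.0021). COL10A1 (ENSDARG00000054753) had 0.158, 0.868 and 0.555 TPM in skin and 7.36, 13.1 and 11.1 TPM in muscle, again with no overlap (log2 fold change -2.91, SE 0.27, adjusted p 0.0018). Tail averaged 63.0 and 62.0 TPM. The similar sequences of the pair may share reads.

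spp1, osteopontin of mineralising matrix, had 0.429, 0.442 and 0.470 TPM in skin and 5.26, 6.44 and 6.45 TPM in muscle. The muscle libraries were all above the skin libraries and closely grouped (log2 fold change -2.28, SE 0.19, adjusted p 0.0016), and tail averaged 103 TPM. bglap, osteocalcin, had 4.48, 3.88 and 3.93 TPM in skin and 14.6, 18.4 and 18.6 TPM in muscle, with no overlap (log2 fold change -1.83, SE 0.19, adjusted p 0.0025). chad, chondroadherin of cartilage and bone (log2 fold change -2.39, adjusted p 0.0018), IFITM5, a membrane protein of osteoblasts (log2 fold change -1.73, adjusted p 0.0087), ENTPD5, a nucleotidase needed for mineralisation in zebrafish (log2 fold change -1.62, adjusted p 0.0055), SOST, an osteocyte Wnt inhibitor (log2 fold change -2.04, adjusted p 0.011), and the homeobox gene msx2b (log2 fold change -2.30, adjusted p 0.014) were called in the same direction by limma, as were scpp7 (log2 fold change -2.78, adjusted p 0.018) and BMP2 (ENSDARG00000041430) (log2 fold change -1.04, adjusted p 0.047). The osteoblast factor SP7 did not pass the filter.

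Dermal and connective tissue genes had negative medians too. Of 48 genes, 41 passed the filter and 11 were called, all of them higher in muscle (26.8%, against 3.16% of all genes). The median log2 fold change of the 41 was -0.77 (-0.44 after median-of-ratios rescaling). All 3 fibrillar type I collagen genes were among the calls. COL1A2 had 39.9, 65.0 and 46.5 TPM in skin and 176, 162 and 130.2 TPM in muscle. Its groups did not overlap (log2 fold change -1.63, SE 0.23, adjusted p 0.0068), and the call held under all 17 alternatives. col1a1a had 46.4, 89.4 and 60.5 TPM in skin and 234, 211 and 152 TPM in muscle, with no overlap (log2 fold change -1.62, SE 0.28, adjusted p 0.014). OGN (ENSDARG00000031489), the small proteoglycan osteoglycin, had 21.4, 22.3 and 26.98 TPM in skin against 86.9, 68.4 and 85.2 TPM in muscle (log2 fold change -1.72, SE 0.19, adjusted p 0.0033), and 1.201 TPM on average in tail. COL5A1, COL5A2, both COL12A1 genes, POSTN (ENSDARG00000104267), FN1 (ENSDARG00000006526) and the tendon gene TNMD were the remaining calls, with log2 fold changes from -1.78 to -1.06. Lumican, LUM, with 78.9, 125 and 86.1 TPM in skin and 98.9, 95.7 and 119 TPM in muscle, overlapped (log2 fold change -0.13, SE 0.22, adjusted p 0.69). After median-of-ratios rescaling 6 members were called higher in muscle and 1, BGN (ENSDARG00000002945), higher in skin. Leaving out 1 library, the muscle count was 2 without skin replicate 3 and 7 without skin replicate 1 or muscle replicate 1.

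Pigment cell genes were the exception among the skin lists: 25 of the 32 that passed the filter had positive log2 fold changes, and the median log2 fold change of the 32 was 0.58 (0.80 after median-of-ratios rescaling). The 7 negative members overlapped and were not called, among them tspan36 (-0.37), BCO1 (-0.34), ltk (-0.31) and slc2a11b (-0.30). The positive members included both PAX7 genes, which are on the myogenic list too, and both FHL2 genes, which averaged 63.8 and 27.1 TPM in heart. The 2 calls were both higher in skin, a share of 6.25% against the 2.26% of all genes. pmela, an amyloid protein of melanosomes, had 8.53, 19.7 and 7.505 TPM in skin and 3.08, 1.57 and 3.61 TPM in muscle, with no overlap and skin replicate 2 highest (log2 fold change 1.71, SE 0.38, adjusted p 0.035). defbl1, a defensin-like peptide gene, had 35.5, 29.6 and 26.1 TPM in skin and 13.6, 15.2 and 12.9 TPM in muscle, with no overlap (log2 fold change 1.07, SE 0.19, adjusted p 0.017). TYRP1 (ENSDARG00000056151), a melanin synthesis enzyme, had 4.03, 13.2 and 7.09 TPM in skin and 0.984, 1.81 and 3.13 TPM in muscle and missed the threshold (log2 fold change 1.55, SE 0.41, adjusted p 0.061). pnp4a, a purine synthesis enzyme of iridophores, overlapped between groups, at 5.34, 17.4 and 10.21 TPM in skin and 1.71, 4.13 and 5.99 TPM in muscle (log2 fold change 1.25, SE 0.45, adjusted p 0.12).

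The pigment count moved with the scaling: 8 members were called higher in skin after median-of-ratios rescaling (against 3.95% of all genes) and 11 by edgeR (against 4.66%). Leaving out 1 library, it was 0 without skin replicate 1, skin replicate 2, muscle replicate 1 or muscle replicate 3. ASIP, agouti signalling protein, which marks pale ventral skin in fish and is not on the list, was singled out after its values were seen: it had 4.07, 7.33 and 5.57 TPM in skin and 43.2, 35.2 and 36.2 TPM in muscle, with no overlap (log2 fold change -2.58, SE 0.23, adjusted p 0.0018).

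**Figure D3:**
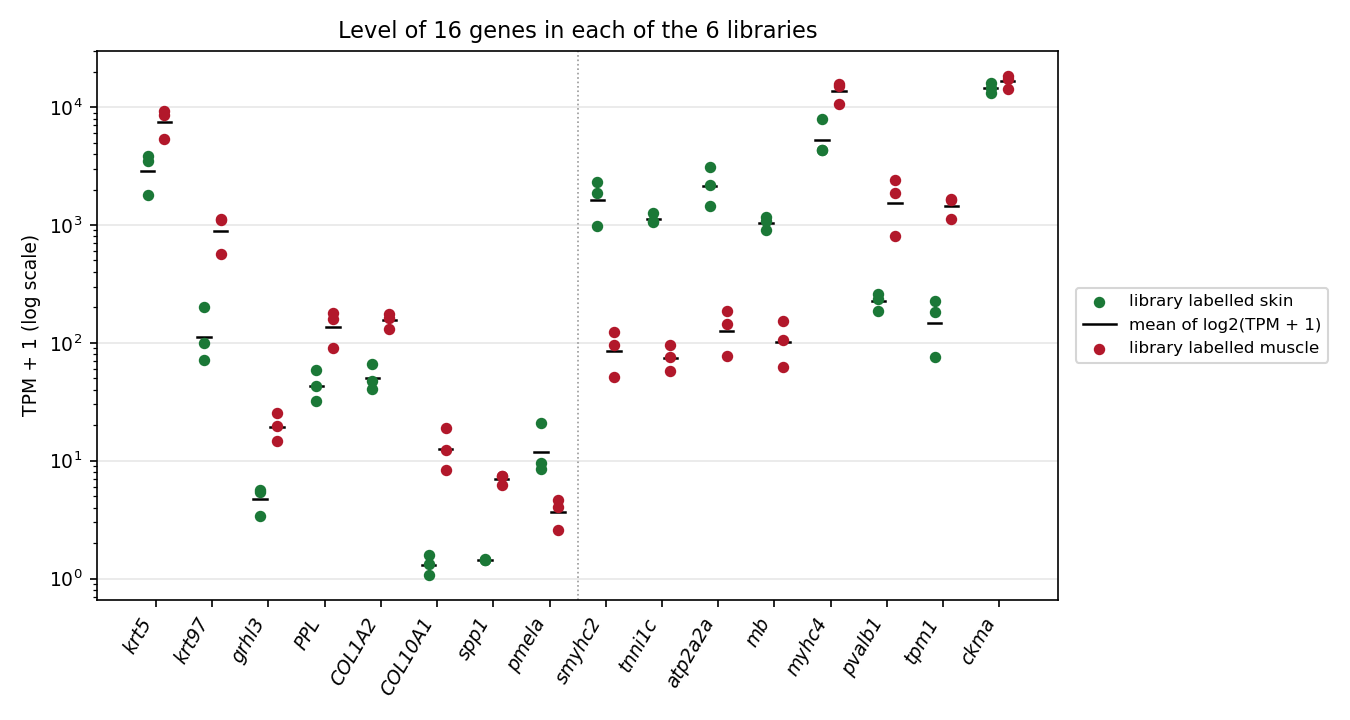
TPM + 1 of 16 genes on a log axis in each library labelled skin and muscle, with a bar at the mean of log2(TPM + 1). The 7 epidermal, dermal and scale genes at the left lie higher in muscle and pmela higher in skin, the slow fibre genes smyhc2, tnni1c, atp2a2a and mb lie higher in skin, myhc4, pvalb1 and tpm1 higher in muscle, and ckma overlaps.

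Slow fibre contractile genes were higher in skin and had the largest median change of the lists examined. Of 23 genes, 20 passed the filter, 15 were called, all of them higher in skin (75%, against 2.26% of all genes), and the median log2 fold change of the 20 was 2.52 (2.90 after median-of-ratios rescaling). The list summed to 17059.6, 22129 and 18380.2 TPM in skin and 1416, 2919 and 1992 TPM in muscle, 9.10 times more on average. smyhc2, a slow myosin heavy chain, had 987, 2311 and 1875 TPM in skin and 50.8, 122 and 94.2 TPM in muscle. The skin mean was 19.4 times the muscle mean without overlap (log2 fold change 4.26, SE 0.39, adjusted p 0.0018). smyhc1, its paralogue, had 160.0, 328 and 267 TPM in skin and 12.3, 34.8 and 15.7 TPM in muscle, also without overlap (log2 fold change 3.60, SE 0.40, adjusted p 0.0033). The slow myosin genes are near-identical copies, so how reads divide between smyhc1 and smyhc2 is uncertain.

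Troponins of slow fibres were higher in skin as well. tnnt2d, a troponin T, had 222, 316 and 229 TPM in skin and 5.19, 8.98 and 21.2 TPM in muscle. Its change was the largest of the list, without overlap (log2 fold change 4.51, SE 0.42, adjusted p 0.0018). tnnt2e, a second troponin T, had 1662, 2473 and 2002 TPM in skin and 71.9, 146 and 141 TPM in muscle, also without overlap (log2 fold change 4.13, SE 0.30, adjusted p 0.00093). tnni1c, a troponin I, had 1051, 1272 and 1075 TPM in skin and 56.2, 95.6 and 74.3 TPM in muscle, with no overlap (log2 fold change 3.92, SE 0.22, adjusted p 0.00043). TNNC1, slow troponin C (log2 fold change 3.75, adjusted p 0.0021), the myosin light chains myl10 (log2 fold change 3.95, adjusted p 0.00093) and myl13 (log2 fold change 3.83, adjusted p 0.00093), and the tropomyosins tpm3 (log2 fold change 2.41, adjusted p 0.0016) and TPM2 (log2 fold change 1.93, adjusted p 0.0077) were called in the same direction by limma. TNNC1, myl10, myl13, tpm3, TPM2, smyhc1, smyhc2, tnnt2d, tnnt2e and tnni1c were called under all 17 alternatives.

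Only 1 of the 20, MYH7, had a negative log2 fold change (-0.78, not called), at 0.256, 0.911 and 1.13 TPM in skin and 1.24, 5.86 and 0.697 TPM in muscle. MYH7, a ventricular myosin in zebrafish, averaged 8545 TPM in heart. Because heart and slow muscle share many of these genes, 13 genes that define heart muscle, among them MYL7, cmlc1, nppa and TBX5, were added after the values were seen. They summed to 1.92, 4.93 and 4.04 TPM in skin, 3.95, 50.05 and 5.98 TPM in muscle and 49235 to 58329.6 TPM in heart. Of the 13, 2 passed the filter, and the source of the slow fibre transcripts was not tested.

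Fast fibre contractile genes had mostly negative log2 fold changes. Of 32 genes, 29 passed the filter. Called were 6 higher in muscle (20.7%, against 3.16% of all genes) and 1 higher in skin (3.45%, against 2.26%). The median log2 fold change of the 29 was -0.71 (-0.33 after median-of-ratios rescaling). The sums were 48916, 42919.9 and 62187 TPM in skin and 96649.7, 90458 and 64797 TPM in muscle. myhc4, the most abundant fast myosin heavy chain, had 4348, 4306 and 7974 TPM in skin and 15120.2, 15826 and 10742 TPM in muscle. The groups did not overlap with TPM as deposited (log2 fold change -1.37, SE 0.27, adjusted p 0.023), and 8 of the 17 alternatives kept the call. myhz2 and myhb, fast myosins at low levels, were called too: myhz2 had 1.96, 2.93 and 3.52 TPM in skin and 10.4, 21.8 and 6.08 TPM in muscle (log2 fold change -1.71, SE 0.40, adjusted p 0.043), and myhb 0.117, 0.320 and 0.586 TPM in skin and 4.30, 6.11 and 3.87 TPM in muscle (log2 fold change -2.10, SE 0.24, adjusted p 0.0033). These heavy chains lie in clusters of similar genes that may share reads.

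Fast troponin I genes, which carry the symbol TNNI2 on several IDs, were called in both directions. TNNI2 (ENSDARG00000013752) had 1498, 1517 and 2555 TPM in skin and 3320.4, 4971 and 4069 TPM in muscle and was called higher in muscle (log2 fold change -1.18, SE 0.25, adjusted p 0.03), as were 2 low-level copies, ENSDARG00000045592 and ENSDARG00000035958. TNNI2 (ENSDARG00000029069) went against its list, with 151, 207 and 331 TPM in skin and 28.7, 51.8 and 101 TPM in muscle and no overlap (log2 fold change 2.01, SE 0.45, adjusted p 0.038). The bulk of the fast list was not called: MYL11 (ENSDARG00000053254), a fast regulatory light chain, had 4004, 3058 and 5473 TPM in skin and 7067, 6272 and 4945 TPM in muscle, with overlap (log2 fold change -0.57, SE 0.23, adjusted p 0.15), and TNNC2, fast troponin C, 2786, 2406 and 3382 TPM in skin and 4985, 5011 and 3759 TPM in muscle, without overlap (log2 fold change -0.68, SE 0.19, adjusted p 0.066). Skeletal actin ACTA1 (ENSDARG00000055618) had 302, 114 and 158 TPM in skin and 154, 121 and 54.4 TPM in muscle, with overlap (log2 fold change 0.81, SE 0.45, adjusted p 0.25). Second genes of MYL11 (ENSDARG00000002589) and ACTA1 (ENSDARG00000036371) were at low levels, with log2 fold changes of -0.83 and -0.32, and were not called. After median-of-ratios rescaling 2 fast genes were called higher in muscle, and leaving out 1 library the count was 1 without skin replicate 1 or skin replicate 2 and 3 without skin replicate 3. In replicate 2 of both groups myha was high, at 52.6 TPM in skin and 182 TPM in muscle, against at most 5.72 TPM in the other 4 libraries.

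Genes of calcium handling were called in both directions. Of 37 that passed the filter, 6 were called higher in skin (16.2%, against 2.26% of all genes) and 4 higher in muscle (10.8%, against 3.16%). The list median turned with the scaling, from -0.16 to 0.22 after median-of-ratios rescaling (-0.10 without muscle replicate 2). The calls higher in muscle were 2 after median-of-ratios rescaling, 2 with edgeR and 2 without the filter. atp2a2a, a calcium pump of the sarcoplasmic reticulum in slow and heart muscle, had 1450.0, 3079 and 2179.8 TPM in skin and 75.6, 185 and 143 TPM in muscle. The skin mean was 16.6 times the muscle mean, without overlap (log2 fold change 4.07, SE 0.37, adjusted p 0.0018). RYR1 (ENSDARG00000011422), a calcium release channel, had 32.6, 63.1 and 55.3 TPM in skin and 3.05, 8.44 and 3.95 TPM in muscle, without overlap (log2 fold change 3.11, SE 0.37, adjusted p 0.0037). Its paralogue RYR1 (ENSDARG00000023797) overlapped between groups, at 33.9, 67.3 and 67.7 TPM in skin and 116, 98.4 and 57.5 TPM in muscle (log2 fold change -0.69, SE 0.35, adjusted p 0.21).

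The voltage sensor of the release channel likewise has a pair of genes. CACNA1S (ENSDARG00000029457) had 17.3, 24.1 and 19.3 TPM in skin and 2.82, 4.98 and 2.80 TPM in muscle (log2 fold change 2.25, SE 0.25, adjusted p 0.0031), and CACNA1S (ENSDARG00000042552) 20.03, 36.0 and 35.7 TPM in skin and 48.2, 45.7 and 25.3 TPM in muscle (log2 fold change -0.36, SE 0.32, adjusted p 0.45). The first did not overlap between groups and the second did. CASQ2, the calcium store protein calsequestrin of slow and heart muscle (log2 fold change 3.24, adjusted p 0.0023), atp2a1, a calcium pump (log2 fold change 1.51, adjusted p 0.004), and SRL (ENSDARG00000112959), sarcalumenin (log2 fold change 1.25, adjusted p 0.016), were the other calls higher in skin. The differences between paralogues were not tested, and several paralogues with no call were named after their values were seen.

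Parvalbumins, soluble calcium buffers that speed the relaxation of fast fibres, made up 3 of the 4 calls higher in muscle. pvalb1 had 257, 184 and 235 TPM in skin and 1881, 2407 and 806 TPM in muscle. The muscle mean was 7.53 times the skin mean, without overlap (log2 fold change -2.78, SE 0.38, adjusted p 0.0059). pvalb2 had 280.1, 219.9 and 451 TPM in skin and 1643, 1408 and 1249 TPM in muscle, and pvalb3 7378, 5651 and 12237 TPM in skin and 24989.9, 24369 and 23928 TPM in muscle. Neither overlapped (log2 fold change -2.23, SE 0.27, adjusted p 0.004 for pvalb2, and log2 fold change -1.61, SE 0.26, adjusted p 0.01 for pvalb3). CLCN1 (ENSDARG00000012269), a chloride channel at low levels, was the fourth call (log2 fold change -1.27, adjusted p 0.049). pvalb4, the most abundant parvalbumin, had 19095, 12844 and 22392 TPM in skin and 32793, 32629 and 30031 TPM in muscle, without overlap and under 2-fold (log2 fold change -0.85, SE 0.20, adjusted p 0.044).

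**Figure D4:**
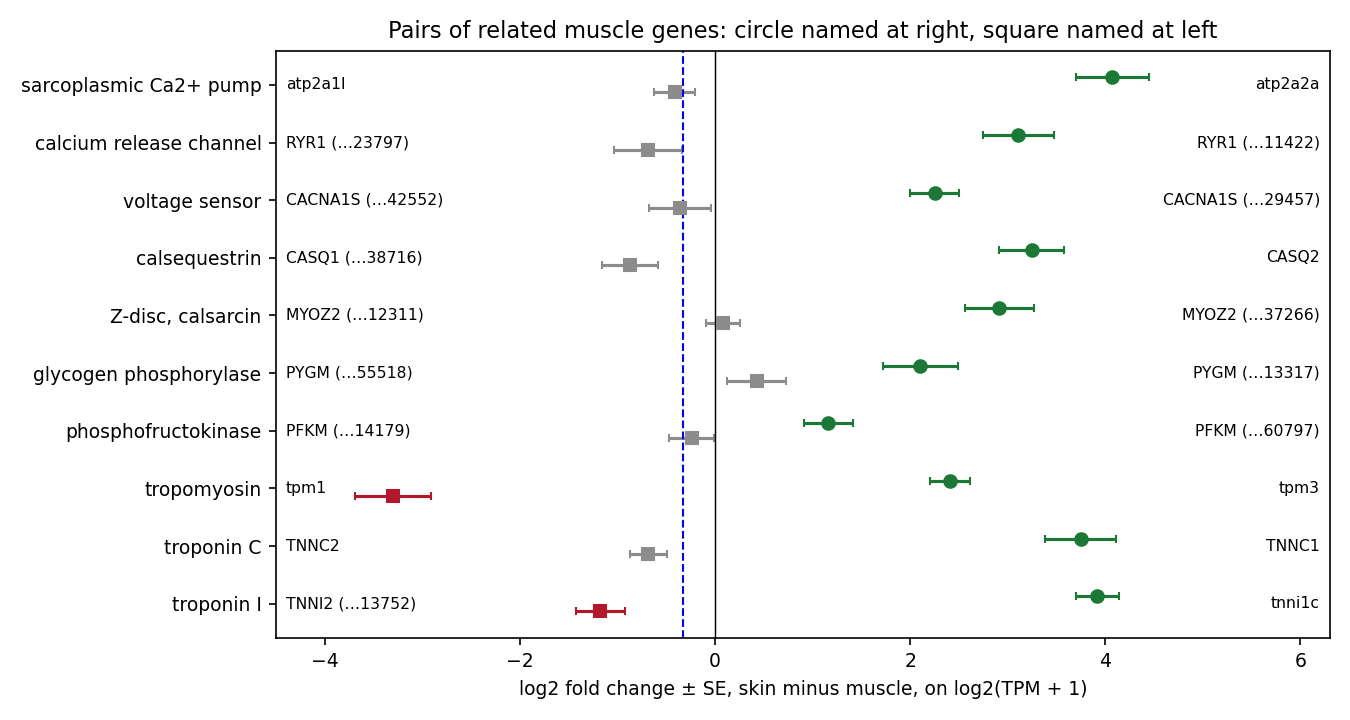
Log2 fold change with its SE for 10 pairs of related muscle genes, with the circle named at the right and the square at the left, and the dashed line at the median over all tested genes (-0.33). Green marks genes called higher in skin, red genes called higher in muscle and grey no call: every circle lies at 1.16 or above, every square at 0.42 or below. The pairs were picked after the values were seen.

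Structural genes of the sarcomere were at high levels in both groups. Of 49 that passed the filter, 3 were called, all of them higher in skin (6.12%, against 2.26% of all genes). The median log2 fold change of the 49 was 0.08 (0.45 after median-of-ratios rescaling). MYOZ2 (ENSDARG00000037266), a Z-disc calsarcin, had 185, 202 and 194 TPM in skin and 13.04, 38.9 and 29.9 TPM in muscle, without overlap (log2 fold change 2.91, SE 0.36, adjusted p 0.0042). LMOD2 (ENSDARG00000045864), a leiomodin that elongates thin filaments (log2 fold change 2.098, adjusted p 0.013), and SMPX (log2 fold change 1.38, adjusted p 0.018) were the others. Nebulin, NEB, had 611, 759.5 and 767 TPM in skin and 906, 848 and 441 TPM in muscle (log2 fold change 0.02, SE 0.28, adjusted p 0.96). DES (ENSDARG00000058656), desmin, had 199, 169 and 259.8 TPM in skin and 174, 163 and 152 TPM in muscle (log2 fold change 0.34, SE 0.20, adjusted p 0.28). Both overlapped between groups. DES (ENSDARG00000005221), the second desmin gene, had 6.81, 5.86 and 1.59 TPM in skin and 8.42, 8.78 and 15.8 TPM in muscle, without overlap, and was not called (log2 fold change -1.16, SE 0.43, adjusted p 0.12). Median-of-ratios rescaling raised the count to 8, and the share of all genes called higher in skin to 3.95%. Without muscle replicate 2 the median was 0.16, and the count was 1 without skin replicate 2.

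Energy metabolism genes of muscle were higher in skin where called. Of 37 that passed the filter, 8 were called, all of them higher in skin (21.6%, against 2.26% of all genes). The median log2 fold change of the 37 was 0.47 (0.81 after median-of-ratios rescaling). mb, myoglobin, the oxygen store of red muscle, had 907, 1166 and 1085 TPM in skin and 61.9, 152 and 106 TPM in muscle. The skin mean was 9.89 times the muscle mean, without overlap (log2 fold change 3.38, SE 0.31, adjusted p 0.0018). FABP3, a fatty acid carrier of oxidative muscle, had 964, 787 and 941 TPM in skin and 279, 298 and 356 TPM in muscle, without overlap (log2 fold change 1.53, SE 0.17, adjusted p 0.0033). nmrk2, a kinase of NAD synthesis (log2 fold change 2.199, adjusted p 0.0026), the cytochrome oxidase subunit cox7a1 (log2 fold change 1.58, adjusted p 0.0024), PYGM (ENSDARG00000013317), a glycogen phosphorylase (log2 fold change 2.104, adjusted p 0.018), the mitochondrial creatine kinase CKMT2 (ENSDARG00000039929) (log2 fold change 1.29, adjusted p 0.0065), PFKM (ENSDARG00000060797) (log2 fold change 1.16, adjusted p 0.034) and GPD1 (ENSDARG00000043701) (log2 fold change 1.06, adjusted p 0.017) were also called by limma. The glycolytic enzyme GAPDH overlapped, at 11486, 12089.7 and 12904 TPM in skin and 11195, 12646 and 9317 TPM in muscle (log2 fold change 0.15, SE 0.15, adjusted p 0.50), and so did ckma (log2 fold change -0.19, SE 0.15, adjusted p 0.39). The count was 14 after median-of-ratios rescaling, where 3.95% of all genes were called higher in skin, and 5 without skin replicate 2.

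Mitochondrial transcripts were higher in skin as a group. All 12 protein-coding genes of the mitochondrial genome on the list were called higher in skin (100%, against 2.26% of all genes), with log2 fold changes from 1.05 to 1.46. After quantile normalization 8 of the 12 were called. This list was 1 of 4 added to the 20 lists fixed at first. MT-CYB, cytochrome b, had 19844, 18727 and 20033 TPM in skin and 6924, 8037 and 6388 TPM in muscle, without overlap (log2 fold change 1.46, SE 0.14, adjusted p 0.0018). The nuclear genes of the respiratory chain, collected by symbol after the values were seen, went the same way. Of 93 that passed the filter, 72 were called, all of them higher in skin (77.4%, against 2.26% of all genes). The median log2 fold change of the 93 was 1.23 (1.62 after median-of-ratios rescaling). cox4i1l, a cytochrome oxidase subunit, had 284, 292 and 339 TPM in skin and 17.2, 61.8 and 42.7 TPM in muscle (log2 fold change 3.05, SE 0.41, adjusted p 0.0056), and ATP5F1A, of the ATP synthase, 1506, 2053 and 1859.8 TPM in skin and 724, 870.3 and 665 TPM in muscle (log2 fold change 1.26, SE 0.18, adjusted p 0.0075). Neither overlapped. The respiratory list summed to 68274, 61164 and 67917 TPM in skin, 24477, 31950.3 and 27859 TPM in muscle and 47641 to 60618 TPM in heart. Of 81 ribosomal protein genes, also added after the values were seen, 0 were called in either direction by limma, edgeR or DESeq2 (unadjusted p under 0.05 in 49), and their median of -0.39 became -0.00 after median-of-ratios rescaling.

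Of the regulators of muscle identity, 24 passed the filter and 1 was called higher in skin (4.17%, against 2.26% of all genes). This was MYOD1, the myogenic determination factor, with 28.1, 30.2 and 39.9 TPM in skin and 13.2, 15.9 and 15.6 TPM in muscle and no overlap (log2 fold change 1.07, SE 0.20, adjusted p 0.021). The median log2 fold change of the 24 was 0.03 (0.38 after median-of-ratios rescaling). After that rescaling 3 were called higher in skin, against 3.95% of all genes. Leaving out 1 library, the count was 0 without skin replicate 2, skin replicate 3, muscle replicate 1 or muscle replicate 3 and 3 without muscle replicate 2, and the median without muscle replicate 2 was 0.13. MYF6, which sustains differentiated fibres, was not called (log2 fold change 1.004, SE 0.30, adjusted p 0.079). SOX6, which represses slow fibre genes in fast fibres of zebrafish, had 5.93, 5.89 and 6.05 TPM in skin and 17.5, 13.6 and 7.97 TPM in muscle, without overlap, and was not called (log2 fold change -0.95, SE 0.27, adjusted p 0.076). EYA1, a factor of the fast programme, had a log2 fold change of -0.92 and was not called (adjusted p 0.052). SOX6 and EYA1 were named after their values were seen.

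**Figure D5:**
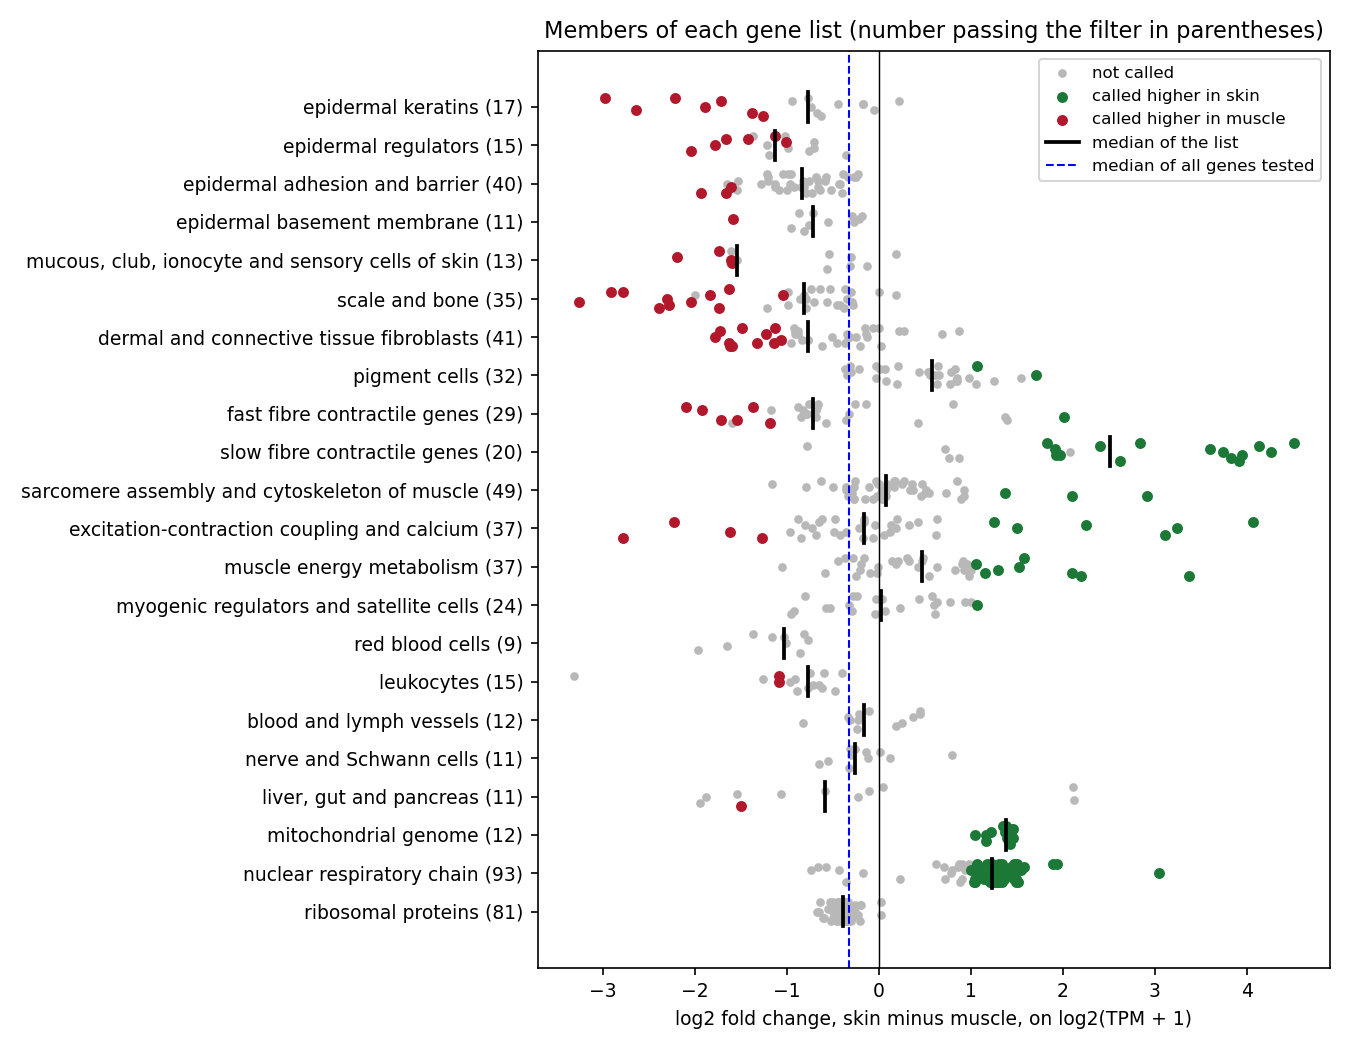
Log2 fold change, skin minus muscle, of the members of 22 gene lists, with called genes in colour, the list median as a black bar and the median over all tested genes (-0.33) as a dashed line. Slow fibre genes (median 2.52) and the 2 mitochondrial lists (1.38 and 1.23) lie to the right, and the epidermal, scale and fibroblast lists (medians -1.13 to -0.71) to the left, apart from the mucous and ionocyte list, whose median is -1.54 with muscle replicate 2 and -0.59 without it. The fast fibre (-0.71), leukocyte (-0.77) and red blood cell (-1.03, or -0.36 without muscle replicate 2) lists lie to the left too.

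Markers of other cell types were counted in the same way. All 15 leukocyte genes that passed the filter had negative log2 fold changes (median -0.77, -0.45 after median-of-ratios rescaling), and 10 had all muscle libraries above all skin libraries, where the share over all genes was 31.5%. The list summed to 828, 878 and 717 TPM in skin and 1486, 1447 and 2181 TPM in muscle, without overlap and in the same direction as the keratins. Of the 15, 11 had an unadjusted p under 0.05 and 2 were called higher in muscle (13.3%, against 3.16% of all genes). These were cd74a (log2 fold change -1.08, adjusted p 0.028) and cd74b (log2 fold change -1.09, adjusted p 0.039), which serve antigen presentation. Neither was called after median-of-ratios rescaling, and the count was 0 without skin replicate 1, skin replicate 2, skin replicate 3 or muscle replicate 3. Among 11 genes of liver, gut and pancreas, 1 was called higher in muscle (9.09%, against 3.16% of all genes). This was VIL1, villin of brush borders (log2 fold change -1.50, adjusted p 0.0087), and the count was 2 without muscle replicate 3. The values of the list ran both ways. The pancreatic proteases CELA1 (ENSDARG00000017314) and prss1 had 70.8, 46.3 and 9.78 TPM and 34.1, 32.3 and 7.15 TPM in skin, against 16.5, 3.14 and 5.15 TPM and 10.22, 1.31 and 3.53 TPM in muscle. Both overlapped and were not called by limma (log2 fold change 2.12, SE 0.74, adjusted p 0.11 for CELA1, and log2 fold change 2.11, SE 0.69, adjusted p 0.096 for prss1), and DESeq2 called both higher in skin (adjusted p 0.0039 and 0.0006). fabp10a, a fatty acid carrier of liver, had 18.6, 11.9 and 0.566 TPM in skin and 34.4, 58.2 and 9.80 TPM in muscle, with overlap and muscle replicate 2 highest (log2 fold change -1.95, SE 0.95, adjusted p 0.20).

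By limma with TPM as deposited, 0 of 9 red blood cell, 12 vessel, 11 nerve and Schwann cell and 2 testis genes were called. The shares over all genes were 2.26% higher in skin and 3.16% higher in muscle. At an unadjusted p under 0.05 the genes of these lists numbered 2, 1, 1 and 0. DESeq2 called 1 red blood cell gene higher in muscle, and edgeR, DESeq2 and limma after quantile normalization each called 1 nerve gene higher in skin. Their list medians were -1.03, -0.16, -0.26 and -0.85, of which those of vessels and nerve turned positive after median-of-ratios rescaling (0.12 and 0.09), while those of red blood cells and testis became -0.73 and -0.68. Without muscle replicate 2 the red blood cell, vessel and testis medians were -0.36, -0.01 and -0.44. Whether blood, immune, nerve or other cells in these samples bear on the comparison was not tested.

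The largest changes toward skin were in contractile genes and a calcium pump. Among called genes with a symbol, non-overlapping groups and a mean of at least 50 TPM in the higher group, 8 genes were taken in each direction. Toward skin, besides tnnt2d, smyhc2, tnnt2e and atp2a2a they were the troponin I genes tnni4b.1 (727, 980.0 and 962 TPM in skin and 22.6, 49.6 and 77.3 TPM in muscle, log2 fold change 4.28, SE 0.40, adjusted p 0.0018) and tnni4b.2 (log2 fold change 4.02, SE 0.45, adjusted p 0.0033), MYBPC3, a myosin-binding protein C (379, 606 and 498 TPM in skin and 17.7, 37.8 and 31.8 TPM in muscle, log2 fold change 4.08, SE 0.30, adjusted p 0.001), and MYH6 (ENSDARG00000114031), a myosin heavy chain by its symbol (216, 365 and 306 TPM in skin and 9.76, 25.4 and 19.3 TPM in muscle, log2 fold change 4.02, SE 0.35, adjusted p 0.0016). MYBPC3 is also a heart gene, at 1849.8 TPM on average there, whereas tnni4b.1, tnni4b.2 and this MYH6 averaged 0.331, 0.0205 and 0.0261 TPM in heart. All 8 were called under all 17 alternatives.

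Toward muscle, the 8 were krt97, tpm1, HSD17B7, PAPSS2 (ENSDARG00000071021), eslec, wu:fk65c09, si:ch211-155m12.1 and si:dkey-193p11.2. tpm1, a tropomyosin, had 227, 75.1 and 180.2 TPM in skin and 1638, 1657 and 1118 TPM in muscle, without overlap (log2 fold change -3.31, SE 0.39, adjusted p 0.0037), opposite to tpm3 and TPM2. HSD17B7, a sterol synthesis enzyme, had 7.46, 10.6 and 25.5 TPM in skin and 164, 68.4 and 269.9 TPM in muscle (log2 fold change -3.41, SE 0.55, adjusted p 0.011), and PAPSS2 (ENSDARG00000071021), which makes the sulfate donor of proteoglycans, 5.47, 26.6 and 21.3 TPM in skin and 103, 65.1 and 203 TPM in muscle (log2 fold change -2.82, SE 0.58, adjusted p 0.028). HSD17B7 and PAPSS2 (ENSDARG00000071021) averaged 424 and 446 TPM in tail. si:dkey-193p11.2 had 120.1, 139 and 94.8 TPM in skin, 546, 697 and 1411 TPM in muscle and 7529 TPM on average in tail (log2 fold change -2.79, SE 0.34, adjusted p 0.0042). eslec averaged 0.193 TPM in tail, with 3.81, 1.65 and 0 TPM in skin and 53.5, 84.3 and 15.5 TPM in muscle (log2 fold change -4.19, SE 0.70, adjusted p 0.013).

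The most abundant genes with no call included muscle genes. nme2b.2, a nucleoside diphosphate kinase, had 30114, 28314 and 31381 TPM in skin and 20534, 22664 and 18746 TPM in muscle, without overlap and under 2-fold (log2 fold change 0.54, SE 0.13, adjusted p 0.042). ckmb, a creatine kinase, had 20247, 20686 and 22501 TPM in skin and 23998, 23075 and 17688 TPM in muscle, with overlap (log2 fold change -0.02, SE 0.15, adjusted p 0.94). MYL1 (ENSDARG00000017441), a fast essential light chain, had 12039.9, 9976 and 14739.8 TPM in skin and 24504, 20725 and 14412 TPM in muscle (log2 fold change -0.68, SE 0.22, adjusted p 0.099), and pvalb4 and si:dkey-153m14.1 (log2 fold change -0.42, SE 0.21, adjusted p 0.20) completed the 5.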

How the data were processed

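Wild-type TLAB zebrafish tissues were sequenced by the authors as strand-specific poly(A) libraries. The deposited tables, 1 per library, hold for each of 32524 genes an estimated count, not rounded, and TPM made by the authors, and the submitters' processing notes name kallisto 0.43.0, cutadapt 1.18, HISAT2 2.1.0, SAMtools 1.9 and the GRCz11 build. The deposited estimated counts were used for depth and, rounded to whole numbers, for the quasi-likelihood test of edgeR 4.0.16 with TMM factors and for DESeq2 1.42.0. The deposited TPM, which keep each library's total fixed, were tested with limma 3.58.1 (R 4.3.3, eBayes with trend) on log2(TPM + 1), with Benjamini-Hochberg adjustment over all genes at 1 TPM or more in at least 3 of the 6 libraries. Fold changes are on that scale and understate the change of low genes. The scripts were tested on simulated data. Replicates differed by more than sampling noise, so none was merged.

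Lists were matched by symbol, with 29201 of 32524 IDs carrying one, and 23 of 561 listed symbols were unmatched. The members and lists were chosen with earlier results of these data known. Named genes were 24 chosen symbols, the 3 members of each list with the largest absolute log2 fold change among those that passed the filter, any called against most of a list, the 8 largest changes in each direction with at least 50 TPM, and the 5 most abundant genes without a call. A few genes are not reported here. Other pseudocounts (0.1 and 0.01), no filter, median-of-ratios and quantile scaling, no trend, all 27 libraries, edgeR, DESeq2, a replicate block and each library left out were tried, and TPM without the mitochondrial genome was added after seeing the data.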

Additional observations from a re-analysis of the deposited data

How the results depend on the processing

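The 99 named genes that were tested gave 1681 values over 17 alternatives. Of these, 1491 kept their call or lack of one, 148 lost the call, 42 gained one, and no call reversed. Genes with no call could change sign: ACTA1 (ENSDARG00000036371) went from -0.32 to 0.02 after median-of-ratios rescaling. The calls of scale and bone genes higher in muscle, and of slow fibre, calcium handling, mitochondrial and respiratory chain genes higher in skin, stayed within 1.5 times under every alternative run, which for the mitochondrial genome leaves out TPM without those genes. The causes of the other shifts were not tested.

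Median-of-ratios rescaling gave 644 calls higher in skin, 226 higher in muscle and a median log2 fold change of -0.022, with 4 keratins, 1 epidermal regulator, 1 barrier gene, 6 fibroblast genes, 2 fast fibre genes and 0 leukocyte genes higher in muscle, and 8 pigment, 8 sarcomere, 14 energy and 3 myogenic genes higher in skin. Quantile normalization gave 254 calls higher in muscle and a median of -0.032, with 2 regulators, 3 fast fibre, 6 pigment, 6 sarcomere and 2 myogenic genes. edgeR gave 761 calls higher in skin and a median of -0.029, with 3 regulators, 7 fibroblast, 11 pigment, 3 fast fibre, 8 sarcomere, 16 energy, 4 myogenic and 0 leukocyte genes. DESeq2 gave 879 and -0.029, with 5 barrier, 3 basement membrane, 7 fibroblast, 15 pigment, 8 sarcomere, 16 energy, 6 myogenic and 0 leukocyte genes, and 2 liver, gut and pancreas genes in each direction.

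TPM without the mitochondrial genome gave 319 calls higher in muscle and a median of -0.17, with 2 regulators, 4 pigment, 2 fast fibre, 6 sarcomere and 0 leukocyte genes. With all 27 libraries in the fit, 788 genes were higher in muscle, with 9 barrier, 5 pigment, 2 myogenic and 2 liver, gut and pancreas genes. Without the filter, 238 genes were higher in muscle, the median was -0.22, and 4 keratins, 2 regulators, 0 barrier, 0 basement membrane, 2 mucous and ionocyte, 1 pigment, 1 fast fibre and 0 leukocyte genes were called. With the replicate block, 413 genes were higher in skin and 563 in muscle, with 4 pigment, 1 leukocyte and 4 liver, gut and pancreas genes. Deviations of same-numbered libraries correlated at 0.192, 0.049 and 0.076. Those of differently numbered libraries correlated at -0.144, -0.032, -0.014, -0.042, -0.200 and 0.112. The labels do not say that a number marks a shared fish, so the main fit did not pair the libraries. Whether they are paired was not settled.

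Leaving out 1 library gave 231 to 427 genes higher in skin, 162 to 792 genes higher in muscle, medians of -0.41 to -0.28, 3 to 9 for epidermal keratins, 1 to 10 for epidermal regulators, 0 to 18 for epidermal adhesion and barrier, 0 to 2 for epidermal basement membrane, 1 to 5 for mucous, club, ionocyte and sensory cells of skin, 2 to 12 for dermal and connective tissue fibroblasts, 0 to 2 for pigment cells, 1 to 4 for fast fibre contractile genes, 1 to 4 for sarcomere assembly and cytoskeleton of muscle, 5 to 11 for muscle energy metabolism, 0 to 3 for myogenic regulators, 0 to 3 for leukocytes and 1 to 2 for liver, gut and pancreas.

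Keratin, troponin and myosin paralogues share sequence, so single values are less certain than sums. Genes near 1 TPM rest on few reads, most of all in muscle replicate 2, the shallowest library. With 3 libraries a group, some changes past 2-fold, such as that of AGR2, were not called.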
